A study of Mus musculus with 2 samples.

Results

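The guidance genes described here are the semaphorins with their plexin and neuropilin receptors, the ephrins with their Eph receptors, the Slits with their Robo receptors, and the netrins. They were taken by symbol (Sema, Plxn, Nrp, Eph, Efn, Slit, Robo or Ntn followed by the family letter or number, netrin-G included and Ephx left out) from probe sets with 1 gene symbol in the platform annotation, which gave 65 of 18193 named genes, on 148 probe sets. Their transcripts were measured at E14.5 in mouse urogenital ridges freed of gonads, on 1 Affymetrix array for a Misr2+/- pool and 1 array for a Misr2-/- pool, each of about 100 ridges, in a mixed background of C57Bl/6 and 129SVEV. Genotype was scored with a YFP reporter, both pools carry at least 1 deleted Misr2 allele, and there is no wild-type pool. Misr2 (Amhr2 in the annotation) encodes the receptor for Müllerian inhibiting substance, a hormone of the fetal testis under which the Müllerian duct is lost, and the pools are described as ridges that respond or do not respond to that hormone. With 1 array per genotype there were no replicates and no test between genotypes was possible, so all differences describe these 2 pools. Sex is not given in the labels, and the ridges of many embryos were pooled.

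Guidance ligands tell neighbouring cells and growing axons where to go. Secreted class 3 semaphorins act through neuropilins paired with plexins, other semaphorins are held at the membrane and bind plexins directly, ephrins signal between touching cells through Eph receptor kinases, Slits repel cells that carry Robo receptors, and netrins attract or repel through Dcc, neogenin and Unc5 receptors. In the embryonic urogenital tract of the mouse, Slit2 and Robo2 are known for limiting where the ureteric bud grows out of the nephric duct.

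A gene was taken as measured when at least 1 pool reached the median of its array, which served as the floor (a signal of 116.5 in the Misr2+/- and 139.4 in the Misr2-/- pool), and it was represented by its brightest probe set. The Misr2-/- array was brighter by 0.26 on the log2 scale at the median, and log2 differences, always Misr2-/- minus Misr2+/-, have this shift taken out except where the text calls them as deposited. Between the 2 brightest probe sets of the same gene, log2 differences had an SD of 0.23 over 5264 genes, the one measure of technical spread that these arrays offer. Amhr2 itself went from 1549.6 to 10.2 on its brightest probe set and lay under the floor on all 3 in the Misr2-/- pool, in the direction of the labels. Markers of ridge mesenchyme (8 of 8) and duct epithelium (10 of 11) were measured. Although the gonads had been removed, all 5 germ cell markers with a probe set and 6 of 8 fetal testis markers with a probe set were measured as well, among them Dppa5a (383.1 in the Misr2+/- and 219 in the Misr2-/- pool) and Cyp17a1 (376.6 and 297.1), while Amh, a Sertoli cell product, was under the floor in both pools. Six2, a nephron progenitor marker, and the sympathetic neuron markers Th, Dbh and Tubb3 were also under it. In such bulk tissue, fewer cells of a type and less RNA per cell cannot be told apart.

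Of the 65 guidance genes 53 were measured, all of them above the floor in both pools. The other 12 (Sema3b, Sema6b, Plxnb3, Epha5, Epha6, Epha8, Epha10, Slit1, Robo3, Ntn4, Ntn5 and Ntng2) had signals of 11.5 to 103.3 in the Misr2+/- and 13.7 to 113.7 in the Misr2-/- pool, and no difference is given for them. The 53 measured genes covered every family.

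Robo1 and Robo2 were at least 1.5-fold higher in the Misr2-/- pool and Plxnc1 was at least 1.5-fold lower. The other 50 measured guidance genes lay within 1.5-fold. Over all 11431 measured genes 2.08% were at least 1.5-fold higher and 0.884% at least 1.5-fold lower, against 3.77% and 1.89% of the guidance genes, which is 2 genes and 1 gene. In either direction together it was 2.97% of all measured genes. Shares that rest on so few genes are near the background, and nothing about guidance genes as a class can be read from them. Their median log2 difference was -0.03, against 0.04 over all measured genes, and 36 of 53 lay within the SD between probe sets, against 73.7% of all measured genes. Values below 0 were found for 30 of 53 guidance genes (56.6%), against 42.3% of all measured genes. They were found for 20 of the 31 measured ligands and 10 of the 22 measured receptors. As deposited, where the brighter Misr2-/- array is not corrected for, 7 of 53 were below 0, 4 were at least 1.5-fold higher (10.1% of all measured genes) and 0 were at least 1.5-fold lower (0.341%). Scaled to the hybridisation spikes, labelled transcripts added before hybridisation, 0 were at least 1.5-fold higher (0.254%) and 12 lower (12.6%).

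**Figure D1:**
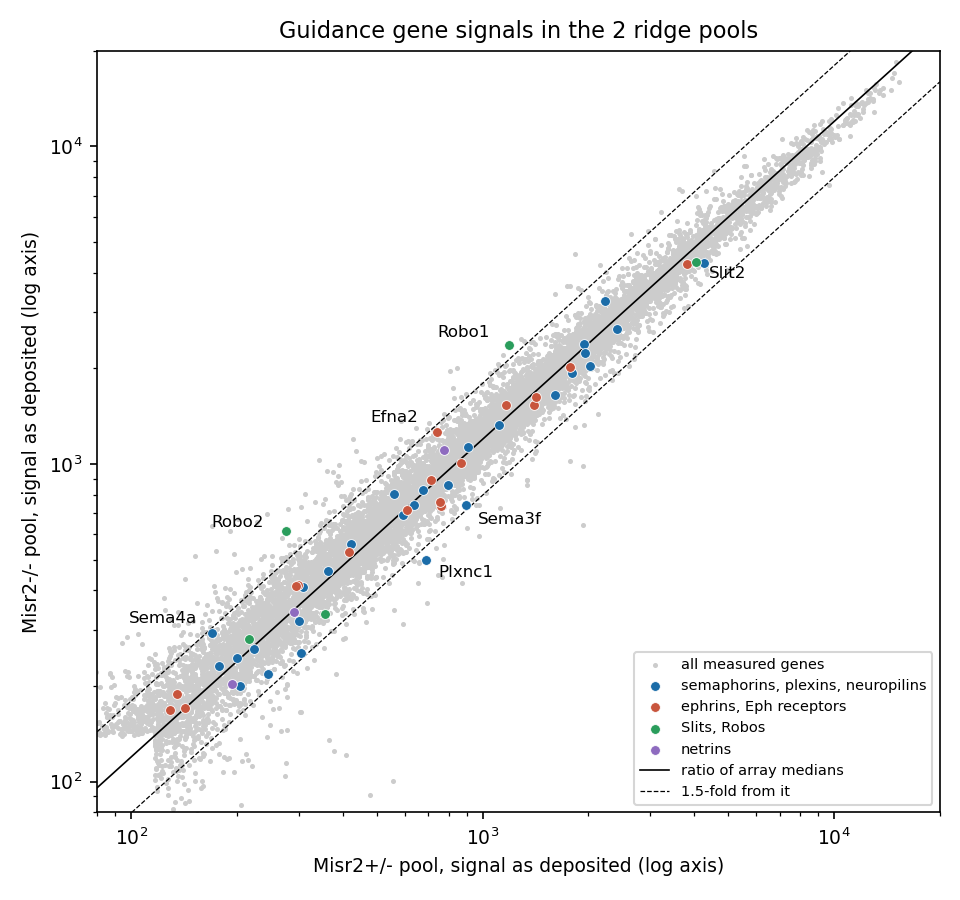
Signal of each measured gene in the Misr2+/- pool (x axis) and in the Misr2-/- pool (y axis), both as deposited on log axes from 80 to 20000. Grey points are all measured genes (67 of 11431 lie outside the axes), coloured points the 53 measured guidance genes by signalling system, the solid line the ratio of the array medians and the dashed lines 1.5-fold from it. Robo1 and Robo2 lie above the upper dashed line and Plxnc1 below the lower one.

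Robo1 and Robo2 encode the receptors through which Slits repel cells. The Robo1 signal was 1186.5 in the Misr2+/- and 2363 in the Misr2-/- pool. After the median shift this was a log2 difference of 0.74, or 1.66-fold higher, the 95th highest value of 11431 measured genes. Robo2, the receptor known for the site of ureteric bud outgrowth, went from 276.1 to 615.6. Its log2 difference was 0.90, or 1.86-fold higher, the 43rd highest value. Both differences were more than 3 times the SD between probe sets (3.13 for Robo1 and 3.83 for Robo2), which leaves out variation between pools. They were the highest values of all 53 guidance genes, ahead of Sema4a at 0.53.

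Each of these Robo values rests on 1 probe set. Neither further probe set of Robo1 reached the floor (85.1 and 88.9 in the Misr2+/- pool, 78 and 62.9 in the Misr2-/- pool), and Robo2 had no further one. Scaled to the spikes, the log2 differences were 0.33 and 0.49, still above 0 but under 1.5-fold. As deposited, the Misr2-/- signal was 1.99 times the Misr2+/- signal for Robo1 and 2.23 times for Robo2. Robo4, a Robo of endothelial cells, went from 216.8 to 282.2, with a log2 difference of 0.12 inside the probe set spread.

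Robo1 and Robo2 lie next to each other on chromosome 16 in the mouse RefSeq annotation, with 5 genes between them, of which 0 are protein-coding and 0 were measured here. The other 3 measured guidance genes of that chromosome had log2 differences of -0.06 (Epha3), -0.31 (Ephb3) and -0.03 (Sema5b). The median over all 367 measured genes of chromosome 16 was 0.01. At least 1.5-fold higher were 15 of them (4.09%), Robo1 and Robo2 included, against 2.08% of all measured genes. None of the 3 genes past 1.5-fold lies on chromosome 15, which carries Amhr2.

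The sequence before the annotated starts is shown for these 3 genes, since the neighbouring Robo genes were higher together and Plxnc1 was lower. Each line holds the 250 bases before a start, from RefSeq on GRCm38.p6, written 5′ to 3′ on the gene's strand. Capitals mark GGGCGG (the GC box), CACGTG (an E-box) and CAGAC (a core bound by Smad proteins), read on both strands.
Robo1 (chr16:72662899-72663148, + strand, its 1 listed start): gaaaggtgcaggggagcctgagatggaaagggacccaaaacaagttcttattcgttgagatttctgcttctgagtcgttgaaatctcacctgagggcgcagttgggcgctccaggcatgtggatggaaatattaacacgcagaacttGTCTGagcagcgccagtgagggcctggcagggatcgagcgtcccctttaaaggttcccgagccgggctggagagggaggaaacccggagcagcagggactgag
Robo2 (chr16:75447294-75447543, - strand, the outermost of 3 listed starts): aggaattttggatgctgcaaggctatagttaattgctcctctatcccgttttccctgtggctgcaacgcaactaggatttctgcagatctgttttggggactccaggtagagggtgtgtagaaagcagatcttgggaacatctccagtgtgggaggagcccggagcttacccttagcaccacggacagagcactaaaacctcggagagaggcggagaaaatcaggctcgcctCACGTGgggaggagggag
Plxnc1 (chr10:94944846-94945095, - strand, its 1 listed start): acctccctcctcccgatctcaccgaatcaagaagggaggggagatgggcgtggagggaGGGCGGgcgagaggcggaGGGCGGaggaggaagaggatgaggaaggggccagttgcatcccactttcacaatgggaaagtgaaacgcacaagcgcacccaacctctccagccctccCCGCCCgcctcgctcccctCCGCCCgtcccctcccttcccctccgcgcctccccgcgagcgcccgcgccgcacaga

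G and C made up 56% of the Robo1 window, 53.2% of the Robo2 window and 68.8% of the Plxnc1 window, while the windows of the inner Robo2 starts stood at 44.8% and 65.6%. GGGCGG was found 4 times before Plxnc1 and 0 times before Robo1 and before all 3 starts of Robo2, and 32.7% of the 32851 RefSeq windows of this length hold it. CACGTG was found once, 18 bases before the outermost Robo2 start (6.02% of windows hold it), and CAGAC 103 bases before the Robo1 start and 205 bases before the middle Robo2 start (42.2%). GGCGCC, a palindrome bound by Smad1 and Smad5, and TATAAA, the TATA box, had 0 matches in all 5 windows of the 3 genes and are held by 9.59% and 12.4% of windows. No match overlapped a match of another motif, and a match is a run of letters and not a shown binding site.

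The Slit ligands did not share the higher values of their receptors. Slit2 went from 4056.2 to 4336.8, a log2 difference of -0.16, with its other measured probe sets at -0.37 and 0.00. Slit3 went from 356.9 to 337.8, with a log2 difference of -0.34 on its 1 probe set. Slit1 was under the floor. Among intracellular partners listed for these pathways, Srgap1, Srgap2 and Srgap3, which link Robo to small GTPases, had log2 differences of -0.13, 0.08 and -0.09. Flrt3, a membrane protein known to bind Robo1, went from 1223 to 2065.8 and stood at 0.50.

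Of the 10 measured markers of duct epithelium 9 were above 0 and 1, Wnt7a, was past 1.5-fold. Their median log2 difference was 0.24, about the SD between probe sets, and -0.16 when scaled to the spikes, and their summed signal went from 13476.2 to 18874.5, or 0.23 on the log2 scale after the median shift. Wnt7a, a WNT of Müllerian duct epithelium, went from 444 to 832.9 (0.65), and Emx2, which encodes a homeodomain factor needed for the urogenital tract, from 1511.9 to 2504.1 (0.47). Of the 9 endothelial markers 6 were above 0, with a median of 0.14 and a summed signal that went from 6954.8 to 8552.3 (0.04). Of the 8 mesenchyme markers 7 were below 0, with a median of -0.26, Amhr2 among them. Their summed signal went from 41536.3 to 43670.7, which was -0.19 after the median shift. Of 7 Schwann and neural crest markers 2 were measured, with a median of 0.30, and the defining markers Sox10 and Foxd3 were under the floor. Summed over the 5 with a probe set, measured or not, their signal went from 720 to 1079.8 (0.33 after the median shift). Of 10 sympathetic neuron markers 2 were measured, with a median of -0.13. The 8 with a probe set, measured or not, summed to 1698.3 and 1747.7 (-0.22 after the median shift). Measured as well was 1 marker each of metanephric kidney (Eya1, 0.23) and adrenal cortex (Mc2r, -0.30). Scaled to the spikes, every marker list had a median below 0. Endothelium was then at -0.26, Schwann and neural crest markers at -0.10, and Eya1 at -0.18. The part of these marker shifts in the Robo values was not tested.

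**Figure D2:**
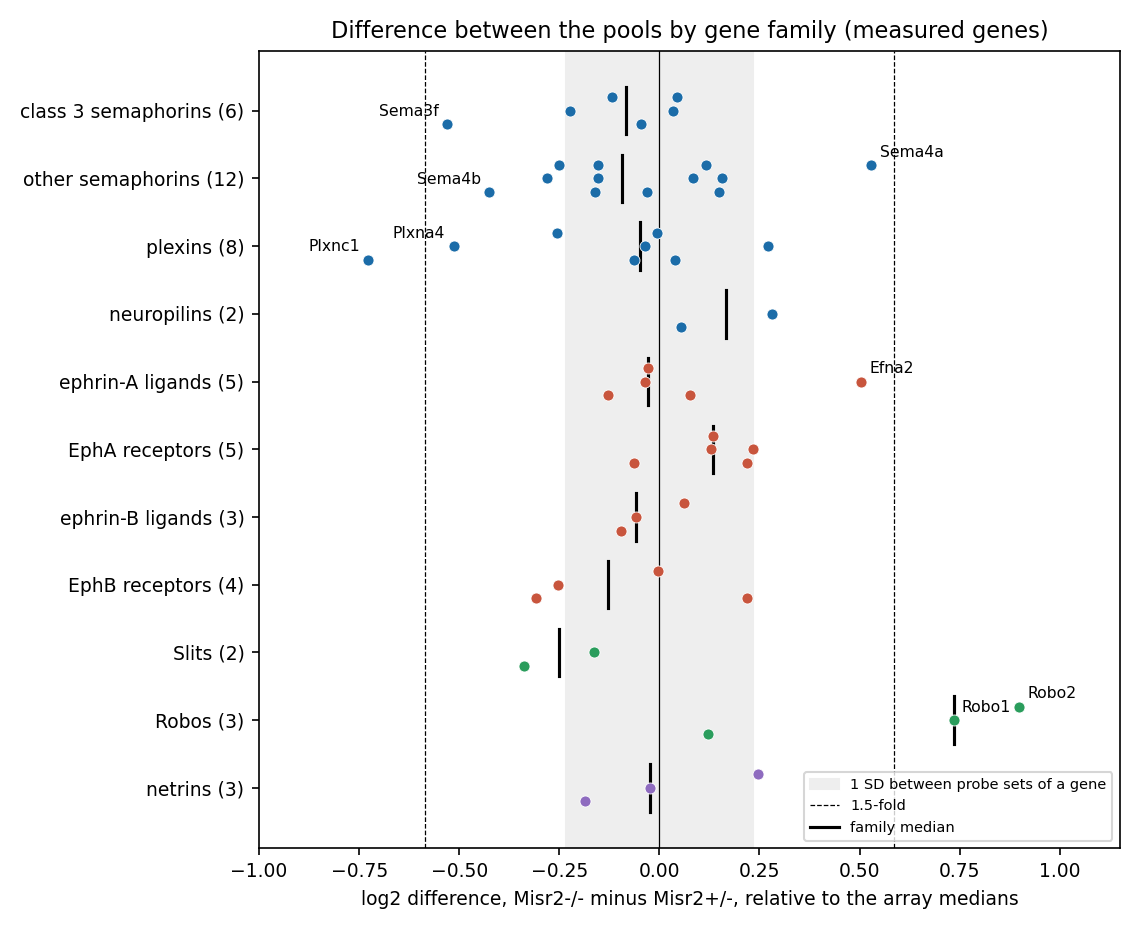
Log2 difference of each measured guidance gene (x axis, Misr2-/- minus Misr2+/-, relative to the array medians) by family (y axis, number measured in brackets). Black ticks are family medians, the grey band is 1 SD between probe sets of a gene, and dashed lines mark 1.5-fold. Robo1 and Robo2 stand apart on the right and Plxnc1 on the left, and most other points fall in or near the band.

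Among plexins, the semaphorin receptors, negative values were found for 6 of the 8 that were measured, and the median log2 difference was -0.05. Plxnc1, the plexin that binds Sema7a, had the lowest value of all guidance genes. Its signal was 688.2 in the Misr2+/- and 497.2 in the Misr2-/- pool. This was a log2 difference of -0.73, or 1.66-fold lower, the 58th lowest value of 11431 measured genes, and 3.10 times the SD between probe sets. Its second measured probe set went from 335.5 to 357.8 (-0.17) and the faintest from 120.6 to 82.6, the latter under the floor. All 3 were below 0, but the lower value past 1.5-fold was found on the brightest one alone, and the median of its measured probe sets was -0.17. Sema7a, its ligand, went from 178.2 to 231.1, with a log2 difference of 0.12. Without the correction for the brighter array the Plxnc1 difference was -0.47, and against the spikes it was -1.13.

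Plxnc1 is also known from blood cells and neurons. Of the 8 macrophage markers 6 were below 0 in the Misr2-/- pool, with a median log2 difference of -0.07. Their summed signal was 7905.9 in the Misr2+/- and 8520.5 in the Misr2-/- pool, which was -0.15 after the median shift. Cx3cr1, a chemokine receptor of macrophages, went from 769.9 to 502.5 (-0.87), but Csf1r and C1qa stood at -0.12 and 0.07. Germ cell markers were lower as well, with 5 of 5 measured below 0 and a median of -1.07. Their summed signal went from 1230.7 to 679.2, or -1.12 after the median shift. Of the fetal testis markers 6 of 6 measured were below 0, with a median of -0.54. Summed over the 8 with a probe set, measured or not, their signal went from 1392.2 to 1175.4 (-0.50 after the shift). The part of these marker differences in the Plxnc1 value was not tested.

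The other plexins were closer to 0. Plxna4, a receptor for class 3 semaphorins in neurons that was looked up after its value had been seen, went from 304 to 254.8, with a log2 difference of -0.51. Plxna2 went from 2025.5 to 2029.2 (-0.26), with further probe sets between -0.20 and 0.19. Plxnb1, the receptor of Sema4d, had the highest plexin value at 0.27, from 557.8 to 805.2, but its other probe set stood at -0.05. Plxna1 (0.04) and Plxnd1 (-0.01), the latter an endothelial receptor of Sema3e, lay inside the probe set spread.

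Both neuropilins, the co-receptors of class 3 semaphorins, were above 0 on their brightest probe set. Nrp1 went from 2236.4 to 3250.6, a log2 difference of 0.28. Its 4 measured probe sets split evenly, 2 higher and 2 lower, and ran from -0.20 to 0.28. Nrp2 went from 908.5 to 1129, a log2 difference of 0.05, with probe sets from -0.19 to 0.10. Neither gene can be given a direction from these arrays, and both values are negative against the spikes.

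Of the 6 measured class 3 semaphorins 4 were below 0, with a median of -0.08. Sema3a, which repels axons through Nrp1, went from 1603.4 to 1644.8, with a log2 difference of -0.22. All 3 of its measured probe sets were below 0, from -0.39 to -0.22, so that its direction did not depend on the probe set, although as deposited its brightest one was at 0.04. Sema3e, the ligand of Plxnd1, went from 595.1 to 689.6 (-0.05), and its other measured probe sets stood at -0.23 and -0.26. Sema3c, needed for the cardiac outflow tract, went from 1939.1 to 2392.2 (0.04), with a second probe set at -0.44. Sema3d, looked up after its values had been seen, went from 2408.4 to 2652.6 on its brightest probe set (-0.12) and from 391.1 to 271.4 on the other (-0.79).

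Sema3f, a ligand of Nrp2, showed the widest disagreement between probe sets. Its brightest probe set went from 894.9 to 741.6, a log2 difference of -0.53. The others went from 441.3 to 566.6 (0.10) and from 157.5 to 254.7 (0.43), in the opposite direction. The brightest one carries the suffix for probes that can hybridise to other transcripts. The setting without shared probe sets also leaves out a further suffix, _a, which the one at 0.10 carries. With both left out Sema3f stood at 0.43, on its faintest probe set.

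The membrane-bound semaphorins were spread around 0. Positive values were found for 5 and negative values for 7 of the 12 that were measured, and the median was -0.09. Sema4a, which was the highest, went from 169.6 to 292.9, a log2 difference of 0.53, on a probe set of the same kind as the brightest one of Sema3f. With the floor at the 60th percentile its value was 0.21. Sema4b was the lowest and went from 245.6 to 218.8 (-0.43), and its value was -0.21 with that floor. Sema5a, a semaphorin with thrombospondin repeats that lies on chromosome 15 with Amhr2, went from 4272.8 to 4293.9 (-0.25), with further probe sets at 0.08 and -0.38.

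**Figure D3:**
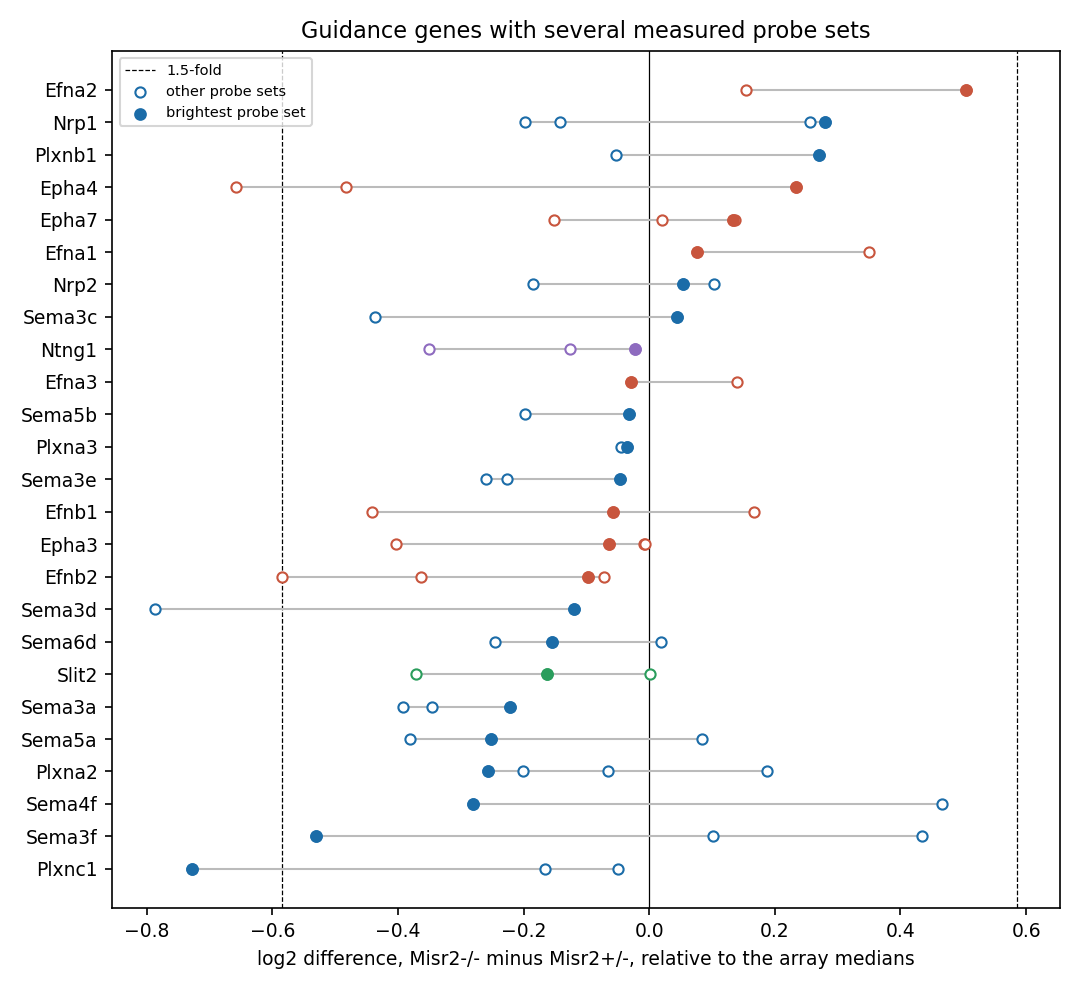
Log2 difference of every measured probe set (x axis, relative to the array medians) for the 25 guidance genes with at least 2 of them (y axis, ordered by the brightest probe set). Filled points are the brightest probe set, open points the others, and dashed lines mark 1.5-fold. In 11 of the 25 genes all points lie on the same side of 0, and Epha4, Sema3f and Sema4f span it widely.

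Ephrins and their receptors held no gene past 1.5-fold. Positive values were found for 8 and negative values for 9 of the 17 that were measured, the median was -0.00, and 14 of 17 lay within the probe set spread. Efna2, a ligand anchored to the membrane by a lipid, had the highest value and went from 741 to 1257.6, a log2 difference of 0.50 or 1.42-fold. Its second probe set went from 247.9 to 330 (0.15), in the same direction. The other 4 ephrin-A genes ran from -0.13 for Efna5, which patterns neural maps, to 0.08 for Efna1.

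Of the 5 measured EphA receptors 4 were above 0, but probe sets of Epha4 disagreed. Its brightest probe set went from 294.5 to 414.2, a log2 difference of 0.23. Its other measured ones went from 279.2 to 239.1 (-0.48) and from 183.7 to 84.4, the latter at least 1.58-fold lower because the Misr2-/- signal is under the floor. The faintest of them is in the authors' deposited table of fold changes, where its signed fold is -2.634. That table holds 2 of the guidance genes' 148 probe sets, against 739 of all 45101, so the count is near the background. The other one there belongs to Sema3e and has a signed fold of -2.004 in the authors' deposited table, with signals of 82.2 and 49.6 in the value table, under the floor in both pools. For neither gene did the brightest probe set follow that fold. Epha7 went from 1169.1 to 1534.3 (0.13), with probe sets from -0.15 to 0.14, and Epha3 from 1768.4 to 2025 (-0.06), with all 4 of its probe sets below 0.

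The ephrin-B ligands and EphB receptors, which signal in both directions across a cell contact, had negative values for 5 of 7 measured genes, the smallest being -0.00 for Ephb1, and none was past 1.5-fold. As deposited 6 of the 7 were above 0, so no direction can be given for them as a group. Efnb2, a ligand of arterial endothelium, went from 3805 to 4256.6, a log2 difference of -0.10, and its 4 probe sets were all below 0, down to -0.58 for one whose Misr2-/- signal was under the floor. Efnb1 went from 1416.9 to 1628.5 (-0.06), with probe sets from -0.44 to 0.17, and Efnb3 from 713.1 to 890 (0.06). Among receptors, Ephb3 went from 762.8 to 736.9 (-0.31) and Ephb4, the venous partner of Efnb2, from 758.6 to 761.7 (-0.25), each on 1 probe set. Ephb6, which lacks kinase activity, went from 135.2 to 188.2, near the floor, and stood at 0.22.

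Of 6 netrins 3 were measured. Ntn1, the classical attractant of commissural axons, went from 776.9 to 1103, with a log2 difference of 0.25 on its 1 measured probe set. Ntn3 went from 193.4 to 203.6 (-0.18). Ntng1, a membrane-anchored netrin, went from 290.2 to 341.7 (-0.02), with its 3 measured probe sets all below 0.

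The netrin receptors and their relatives, a list of 9 genes that are not netrins themselves, had 6 measured members and a median of -0.01, with 0 past 1.5-fold. Unc5b and Unc5c, receptors for repulsion by netrin, had the lowest values. Unc5b went from 1152.4 to 941.6 (-0.55) and Unc5c from 1354.1 to 1187.6 (-0.45). Rgmb, a neogenin ligand, was the highest at 0.23, and Dcc and Neo1 stood at -0.06 and 0.04.

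Of 20 intracellular partners 18 were measured, with a median of 0.06, and 1 was past 1.5-fold. This was Mical2, an actin-oxidising enzyme of the family that acts below plexins, which went from 206.8 to 116.2 and was at least 1.78-fold lower. Vav2, an exchange factor used by Eph receptors, was the highest at 0.48, from 373 to 620.4. Of 10 co-receptors and other partners 6 were measured, with a median of -0.07. Met, the hepatocyte growth factor receptor that can pair with B-class plexins, went from 645.5 to 1295.7 and was 1.68-fold higher (0.75). This is the brightest of its 2 measured probe sets. Kdr, a VEGF receptor that works with Nrp1, was the lowest at -0.53, from 1112.5 to 924.3.

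**Figure D4:**
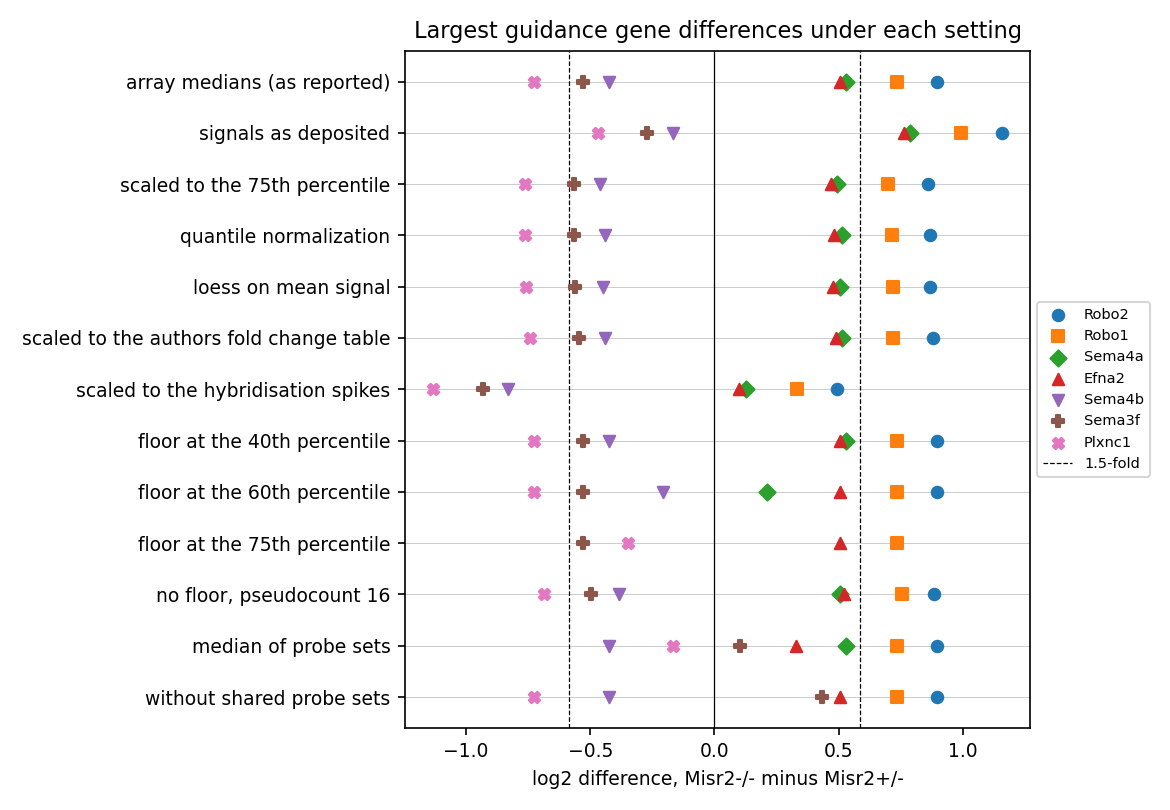
Log2 difference (x axis, Misr2-/- minus Misr2+/-) of 7 guidance genes with large values, under each scaling, floor and probe set rule (y axis). Each gene has its own symbol, dashed lines mark 1.5-fold, and a missing symbol means that the gene was not measured under that setting. Robo1 and Robo2 lie right of 0 wherever they are measured, while Sema3f crosses 0 with the choice of probe set. The other floor percentiles and the probe set rules could not move Robo1 or Robo2.

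Probe sets of the same gene agreed in direction no more often for guidance genes than in general. Of the 25 guidance genes with at least 2 measured probe sets, 11 (44%) had all of them on the same side of 0, against 44.6% of 5264 measured genes with several. In 9 of these 11 all probe sets were below 0, against 1086 of the 2350 genes whose probe sets shared a side. As the array median sets the place of 0, these counts depend on the scaling. These were Sema3a, Sema3d, Sema3e, Sema5b, Plxna3, Plxnc1, Epha3, Efnb2 and Ntng1. The other two, Efna1 and Efna2, had both probe sets above 0. The remaining 28 measured guidance genes, Robo1 and Robo2 among them, rest on 1 measured probe set each.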

How the data were processed

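Each array came as a column of linear intensity values, 1 for every probe set, as deposited by the authors. GCOS and MAS5 are the tools listed, without version or role, per the submitters' processing notes. The authors' deposited table of fold changes pairs the intensity of both pools with a signed fold, which was handled as a score. Its intensities are those of the value table times 1.09 (Misr2+/-) and 0.901 (Misr2-/-). How the authors scaled the intensities and chose the 739 probe sets was not given in the sources used here, and no detection calls were used.

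Of 45101 probe sets, 64 controls were left out, and 34945 had 1 gene symbol. Each array was divided by its median and signals under it were set to it, and folds against those values are lower bounds. The threshold was 1.5-fold. For marker and partner genes other than Amhr2 only the brightest probe set is given, although several have more. The spread between probe sets was taken from genes with several measured probe sets: the SD of the brightest minus the next brightest log2 difference, over the root of 2. The members, lists, threshold and alternatives were chosen with earlier results of these data known. Named are genes past the threshold, the highest and lowest of each family, members in the authors' table and well known ligand and receptor pairs. Other names were chosen after their values were seen. Of 65 members, 57 had a RefSeq promoter window. The steps recovered known 2-fold changes put into brighter genes of simulated data (Python 3.11.15, pandas 2.3.3, numpy 2.4.6, statsmodels 0.14.6). The simulated noise was smaller than the spread between probe sets here, and changes of 1.5-fold or in faint genes were not simulated. The number of arrays limits the precision.

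Alternatives were other scalings (75th percentile, quantile, loess, authors' table, spikes, none), other floors (40th, 60th or 75th percentile), a pseudocount of 16 without a floor, the median of probe sets, leaving out shared probe sets, and thresholds of 1.3-fold and 2-fold. The spike-scaled medians of the marker lists were added after seeing the data.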

Additional observations from a re-analysis of the deposited data

How the results depend on the processing

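No paired analysis was possible because each genotype has 1 array. The count of guidance genes at least 1.5-fold higher was 2, and of those lower 1, with quantile, loess, 75th percentile and authors' table scaling, floors at the 40th and 60th percentile, no floor, and without shared probe sets. As deposited the counts were 4 higher (10.1% of all measured genes) and 0 lower (0.341%), and against the spikes 0 higher (0.254%) and 12 lower (12.6%), because these scalings move every gene by 0.26 and -0.40. The median of the guidance genes moved with them, from -0.03 to 0.23 and -0.43. With the floor at the 75th percentile the counts were 1 (Robo1) and 0 (0.796% and 0.363% of all measured genes), since Robo2 was then not among the 31 measured guidance genes and Plxnc1 moved to -0.35. With the median of probe sets they were 2 and 0 (1.60% and 0.717%), because Plxnc1 moved to -0.17, and Epha4 (-0.48), Sema3c (-0.20) and Sema3f (0.10) changed sign. At 1.3-fold there were 4 higher and 4 lower, against 7.31% and 3.11% of all measured genes, and at 2-fold 0 and 0. The direction of Robo1, Robo2 and Plxnc1 was the same under every alternative in which they were measured. For Robo1 and Robo2 the other floor percentiles, the median of probe sets and leaving out shared probe sets could not move the value. Each rests on 1 measured probe set above the floor, so only the scalings and the pseudocount could change it. Of the 31 measured guidance genes that the naming rule takes, which leaves out those named after their values were seen, 11 changed sign as deposited and 11 against the spikes.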
